A study of Mus musculus with 9 samples.

Results

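The immunoproteasome and the class I peptide loading machinery were followed in MC38 mouse colon carcinoma cells through 10 genes, chosen by symbol: Psmb8, Psmb9, Psmb10, Psme1, Psme2, Tap1, Tap2, Tapbp, Erap1 and Nlrc5. All 10 were among the 16399 genes with a deposited value, and each had at least 2.63 TPM (a level scaled for transcript length and for the total of the library) in every library. Poly(A) RNA of cultured cells was sequenced in 3 biological replicates of MC38-P, the parental line, and as many of MC38-LM3a and of MC38-LM3b, 9 libraries in all. Both derivatives came from MC38-P cells that were injected into the spleen of immunocompetent C57BL/6 mice, recovered from liver metastases, grown in vitro and injected again until the third generation, so that each is a single selected line whose replicates are cultures of that line. Cells of all 3 lines carried a GFP and luciferase reporter. MC38-P had not been through the mice, so the passage itself and the selection for liver growth cannot be told apart in these comparisons.

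The proteasome cuts cytosolic proteins into peptides, and cells that see interferon-gamma exchange its 3 catalytic beta subunits for the immunosubunits encoded by Psmb8, Psmb9 and Psmb10. Psme1 and Psme2 encode the alpha and beta subunits of PA28, a ring that caps the proteasome. The peptides are carried into the endoplasmic reticulum by the transporter made of Tap1 and Tap2, are trimmed there by the aminopeptidase Erap1, and are loaded onto class I molecules with the help of tapasin, the product of Tapbp. Nlrc5 is the transactivator of class I genes, which acts at their promoters together with the RFX complex. Tumour cells that present fewer peptides on class I are less visible to CD8+ T cells.

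Psmb9, Tap1, Psmb8 and Tap2 follow one another on chromosome 17, in that order among the listed genes, and Tapbp lies on the same chromosome. Psmb10 and Nlrc5 are on chromosome 8, Psme1 and Psme2 on chromosome 14 and Erap1 on chromosome 13. Psmb9 and Tap1 point away from each other, and the stretch between their starts is shared. The promoter windows of RefSeq (GRCm38.p6, 250 bases before to 50 after each start, 300 in all) held 9 windows for 8 of the 10 genes. They were searched on both strands for 3 motifs: an interferon-stimulated response element of the form GAAANNGAAA (TTTCNNTTTC on the other strand), a gamma-activated site of the form TTCNNNGAA, and the CCAAT box (ATTGG on the other strand). The windows below are shown because they hold every match found for these genes. Capitals mark the matches, and each sequence is given on the plus strand, 5′ to 3′. The first lies at chr17:34187331-34187555 and runs from the base beside the Psmb9 start to the base before the Tap1 start. The second lies at chr17:34197945-34198194, directly before the Psmb8 start, and the third at chr17:33919228-33919477, directly before the Tapbp start. The last pair are stretches of 30 bases over the starts of Erap1 (chr13:74639838-74639867) and Psme1 (chr14:55578492-55578521).
Psmb9 to Tap1: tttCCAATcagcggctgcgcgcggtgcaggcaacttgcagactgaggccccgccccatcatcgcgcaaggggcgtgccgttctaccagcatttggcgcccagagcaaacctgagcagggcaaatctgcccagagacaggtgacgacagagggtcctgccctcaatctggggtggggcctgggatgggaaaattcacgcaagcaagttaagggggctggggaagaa
Psmb8: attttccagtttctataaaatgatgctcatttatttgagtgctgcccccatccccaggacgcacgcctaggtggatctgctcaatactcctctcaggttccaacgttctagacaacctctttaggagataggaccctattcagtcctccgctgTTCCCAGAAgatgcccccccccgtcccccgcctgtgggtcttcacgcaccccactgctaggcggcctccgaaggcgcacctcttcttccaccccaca
Tapbp: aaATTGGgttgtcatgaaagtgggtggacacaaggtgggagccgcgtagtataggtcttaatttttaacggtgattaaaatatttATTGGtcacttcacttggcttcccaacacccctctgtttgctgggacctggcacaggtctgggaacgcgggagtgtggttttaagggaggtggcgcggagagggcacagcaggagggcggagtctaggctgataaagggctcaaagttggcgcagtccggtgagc
Erap1: tccaccttcacTTTCACTTTCggtcccggg
Psme1: tcgagctgtgcTTTCGCTTTCccttcccgc

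The CCAAT box between Psmb9 and Tap1 is a single site, at -8 to -4 from the Psmb9 start and at -222 to -218 from the Tap1 start. Tapbp had a pair of these boxes, at -248 to -244 and at -165 to -161. The gamma-activated form was matched in the Psmb8 window alone among the 9, at -97 to -89. The response element form was matched in Erap1 at -4 to 6 and in Psme1 at 10 to 19. Over all 32851 promoter windows of the table, 3.44% held the response element form, 8.3% the gamma-activated form and 37.4% a CCAAT box. These matches describe letters in a window and say nothing of binding.

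The number of genes at 1 TPM or more was 10875 to 11218 per library. Without counts, no depth can be given. Libraries of the same line differed by transcript length. Over 11096 genes, Spearman's correlation of length with the deviation from the group mean was 0.67 for MC38-LM3a replicate 3, against -0.58 and -0.54 for replicates 1 and 2, and -0.65 for MC38-P replicate 3, against 0.54 and 0.43. The MC38-LM3b libraries lay within -0.02 and 0.02. The counts of the 10 genes that passed are therefore also given without replicates 3 of these lines, although the parental libraries that remain then read high in long transcripts and those of MC38-LM3a read low. The log2 fold change of the median tested gene against MC38-P was 0.00 for MC38-LM3a and 0.21 for MC38-LM3b, and the fold changes below are to be read beside these values.

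In MC38-P the levels ran from Psme2 at 307 ± 10.2 TPM (SD, n = 3, as for each mean below) through Psme1 at 225 ± 1.85, Tapbp at 93.0 ± 9.89, Psmb10 at 52.3 ± 2.17, Erap1 at 47.5 ± 6.43, Psmb8 at 41.4 ± 3.94, Tap2 at 18.4 ± 1.45, Tap1 at 7.85 ± 0.860 and Psmb9 at 7.21 ± 2.43 to Nlrc5 at 3.40 ± 0.765. Neighbours in this order whose libraries overlapped were Psmb10 and Erap1, Erap1 and Psmb8, and Tap1 and Psmb9. In MC38-LM3b Psmb8, at 149 ± 5.77 TPM, stood above Tapbp at 133 ± 5.31, with no overlap between their libraries, while Psme2 at 417 ± 17.8 was still the highest and Nlrc5 at 17.8 ± 0.307 the lowest. The plot of TPM by library shows each of the 10 genes.

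**Figure D1:**
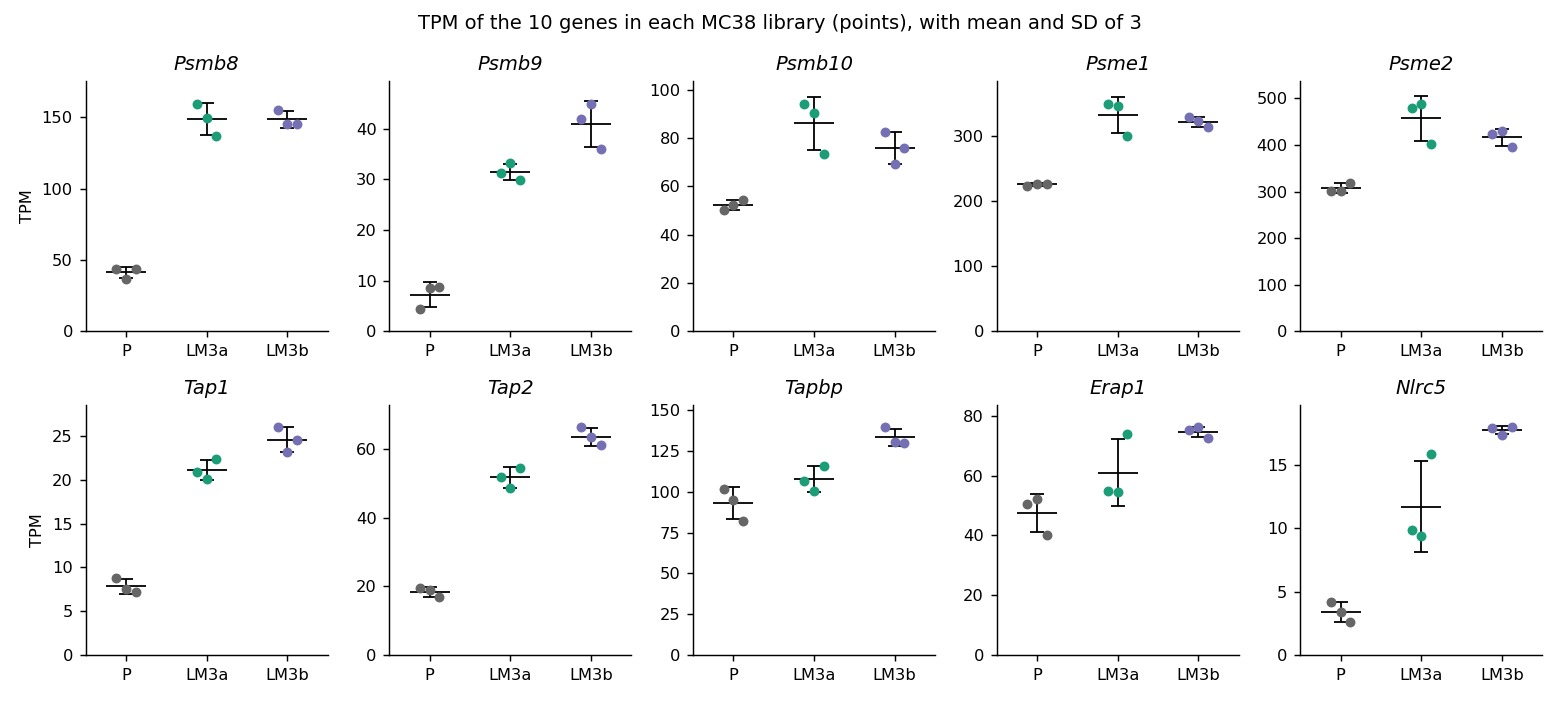
TPM (vertical axes, from 0) of the 10 genes in the 9 libraries, 3 for each line. Points are libraries, and bars are the mean and SD of 3. Psmb8 lay between 36.9 and 43.9 TPM in MC38-P and above 137 TPM in every derivative library.

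Both derivatives had more RNA of these genes than MC38-P. In MC38-LM3a, 8 of the 10 genes were higher at an adjusted p under 0.05 (limma, Benjamini-Hochberg over 11287 genes) and none was lower, where 14.1% of all tested genes were higher. Of these, 5 were DEGs (that adjusted p together with a log2 fold change beyond 1 in size), namely Psmb9, Psmb8, Nlrc5, Tap2 and Tap1, against 1.39% of all tested genes that were DEGs with higher levels. In MC38-LM3b all 10 genes were higher, where 35.6% of all tested genes were, and the same 5 were DEGs, against a background of 2.76%. The median log2 fold change of the 10 genes was 1.01 for MC38-LM3a and 1.09 for MC38-LM3b, and the lowest single values were 0.21 and 0.44. All libraries of MC38-LM3a lay above all of MC38-P in 9 of the 10 genes, as in 20.3% of all tested genes, and those of MC38-LM3b in all 10, as in 51.3%. Without replicates 3 of MC38-P and MC38-LM3a, 8 genes were higher in MC38-LM3a and 10 in MC38-LM3b, 5 of them DEGs in each, where 18.4% and 46.3% of all tested genes were higher. The 10 genes were chosen with earlier results of these data known, so their counts beside these shares are a description and not an independent test. The comparisons share the MC38-P libraries, so they are not independent of each other. In bulk RNA, more cells that express a gene and more of its RNA per cell cannot be told apart.

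**Figure D2:**
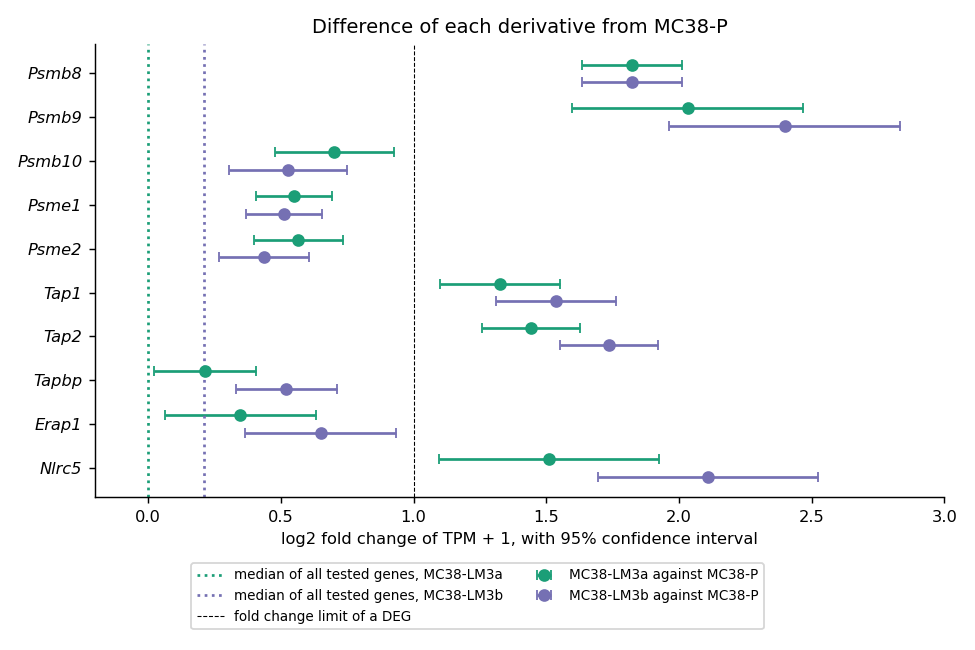
Log2 fold change of TPM + 1 of the 10 genes in MC38-LM3a and MC38-LM3b against MC38-P (horizontal axis), with the 95% confidence interval of the limma fit of 9 libraries. Dotted lines are the medians of all 11287 tested genes, 0.00 and 0.21, and the dashed line is the fold change limit of a DEG, passed by Psmb8, Psmb9, Tap1, Tap2 and Nlrc5 in both derivatives.

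Among the catalytic immunosubunits, Psmb8, which encodes the beta5i subunit, had 43.6, 36.9 and 43.9 TPM in MC38-P, 160, 150 and 137 TPM in MC38-LM3a, and 155, 146 and 145 TPM in MC38-LM3b. All derivative libraries lay above all parental ones, and the derivatives overlapped with each other. The log2 fold change was 1.82 (SE 0.08) in each derivative, with adjusted p-values of 1.987e-07 for MC38-LM3a and 1.703e-07 for MC38-LM3b (limma). Psmb9, which encodes beta1i, had 4.40, 8.52 and 8.70 TPM in MC38-P, 31.3, 33.2 and 29.9 TPM in MC38-LM3a, and 41.9, 44.9 and 36.0 TPM in MC38-LM3b. No library of one line overlapped with those of another. Its fold change was 2.03 (SE 0.20, adjusted p = 4.144e-05) in MC38-LM3a and 2.40 (SE 0.20, adjusted p = 1.089e-05) in MC38-LM3b by limma, and ranked 28 and 21 among the 11287 tested genes. It was the largest of the 10 genes in both, but without MC38-P replicate 1 it was 1.76, below Psmb8 at 1.86, in MC38-LM3a, and 2.12, below Nlrc5 at 2.23, in MC38-LM3b. Psmb10, which encodes beta2i, had smaller fold changes. Its levels were 50.1, 52.3 and 54.4 TPM in MC38-P, 94.2, 90.5 and 73.4 TPM in MC38-LM3a, and 82.6, 69.3 and 75.7 TPM in MC38-LM3b. The derivatives did not overlap with MC38-P, and the log2 fold changes were 0.70 (SE 0.10, adjusted p = 0.0005721) and 0.53 (SE 0.10, adjusted p = 0.002098) by limma.

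Each immunosubunit takes the place of a constitutive subunit, Psmb5 for Psmb8, Psmb6 for Psmb9 and Psmb7 for Psmb10, and their ratio in 1 library does not depend on the scaling of that library. Psmb8 had 7.76 ± 0.694 TPM per 100 TPM of Psmb5 in MC38-P, against 26.9 ± 1.56 in MC38-LM3a and 32.4 ± 0.629 in MC38-LM3b. Psmb9 had 1.61 ± 0.482 TPM per 100 TPM of Psmb6 in MC38-P, against 7.40 ± 0.651 in MC38-LM3a and 11.0 ± 1.17 in MC38-LM3b. Psmb10 had 8.27 ± 0.476, 14.9 ± 1.95 and 15.0 ± 1.87 TPM per 100 TPM of Psmb7 in the same order. The constitutive partner was thus the more abundant RNA of every pair in every line, also where the immunosubunit was several times higher than in MC38-P.

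The ratio of Psmb8 to Psmb5 in MC38-LM3a was 3.47 times that of MC38-P and in MC38-LM3b 4.18 times, that of Psmb9 to Psmb6 was 4.73 and 7.02 times, and that of Psmb10 to Psmb7 was 1.80 times in each. No ratio of a derivative overlapped with that of MC38-P. Between the derivatives, the ratios of Psmb8 and Psmb9 did not overlap either, 1.21 and 1.48 times higher in MC38-LM3b, and those of Psmb10 did. With 3 libraries against 3, the two-sided exact permutation test cannot go below 0.1, which it reached in 8 of the 9 comparisons of these ratios (adjusted over the 9, exact p = 0.1125), so none could pass 0.05. Of the partners, none passed in MC38-LM3a, where the log2 fold changes of Psmb5, Psmb6 and Psmb7 were 0.05, -0.05 and -0.13. In MC38-LM3b they were -0.22 for Psmb5 and -0.24 for Psmb6, with adjusted p-values of 0.06744 and 0.05261 (limma), and Psmb7 fell by 0.32 (adjusted p = 0.001234).

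**Figure D3:**
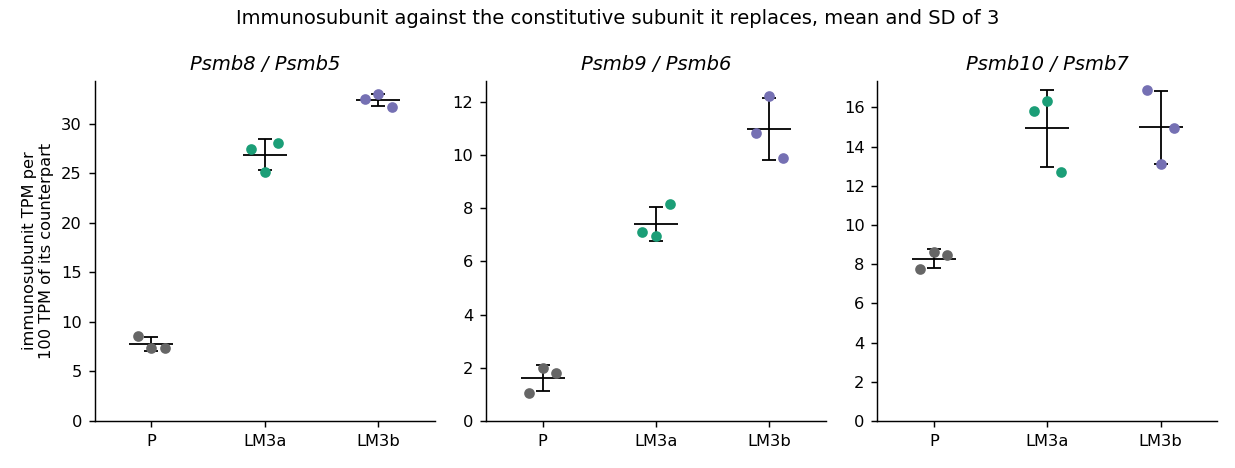
TPM of each immunosubunit per 100 TPM of the constitutive subunit it replaces (vertical axes, from 0) in 9 libraries, with the mean and SD of 3. The ratio of Psmb9 to Psmb6 was between 1.07 and 1.98 in MC38-P, between 6.94 and 8.15 in MC38-LM3a, and between 9.91 and 12.2 in MC38-LM3b.

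The PA28 subunits were the most abundant of the 10 genes and had modest changes of like size. Psme1 had 223, 226 and 226 TPM in MC38-P, 349, 345 and 299.5 TPM in MC38-LM3a, and 328, 323 and 313 TPM in MC38-LM3b. All derivative libraries were above the parental ones, and the log2 fold changes were 0.55 (SE 0.07, adjusted p = 0.0001638) and 0.51 (SE 0.07, adjusted p = 0.0001843) by limma. Psme2 had 302, 302 and 319 TPM in MC38-P, 480.2, 489 and 403 TPM in MC38-LM3a, and 424, 429 and 396 TPM in MC38-LM3b. Again there was no overlap with MC38-P, and the fold changes were 0.57 (SE 0.08, adjusted p = 0.0003748) and 0.44 (SE 0.08, adjusted p = 0.001231) by limma on the log2 scale. There were 1.36 TPM of Psme2 for each TPM of Psme1 in MC38-P, 1.38 for MC38-LM3a and 1.30 for MC38-LM3b. The ratios of MC38-LM3b, 1.27 to 1.33, lay below all others, and those of the other lines overlapped, with no test made. Psme2b, a close copy of Psme2 that was listed on its own, had between 0.7 and 2.86 TPM, and how reads shared by the copies were assigned is not stated. When each library was centred on its median gene, Psmb10, Psme1 and Psme2 no longer passed in MC38-LM3b, with log2 fold changes of 0.30, 0.29 and 0.21 and adjusted p-values of 0.1315, 0.08096 and 0.2395 (limma).

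The transporter subunits rose together. Tap1, which encodes one chain of the peptide transporter, had 8.81, 7.59 and 7.15 TPM in MC38-P, 20.9, 20.1 and 22.4 TPM in MC38-LM3a, and 26.0, 23.2 and 24.6 TPM in MC38-LM3b. Tap2, which encodes the other chain, had 19.5, 19.1 and 16.8 TPM in MC38-P, 52.0, 48.7 and 54.6 TPM in MC38-LM3a, and 66.4, 63.5 and 61.1 TPM in MC38-LM3b. For both genes MC38-P was lowest and MC38-LM3b highest, with no overlap between any of the lines. The log2 fold changes of Tap1 were 1.32 (SE 0.10, adjusted p = 8.867e-06) and 1.54 (SE 0.10, adjusted p = 2.354e-06) in MC38-LM3a and MC38-LM3b, and those of Tap2 were 1.44 (SE 0.08, adjusted p = 1.22e-06) and 1.74 (SE 0.08, adjusted p = 2.333e-07), by limma. Tap2 had 2.36 TPM for each TPM of Tap1 in MC38-P (2.21 to 2.51 by library), 2.45 for MC38-LM3a (2.43 to 2.49) and 2.59 for MC38-LM3b (2.48 to 2.74). These ratios overlapped between all lines, with no test made.

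Tapbp and Erap1, the loading and trimming genes, had smaller differences. Tapbp, which encodes the bridge between the transporter and the class I molecule, had 102, 95.2 and 82.2 TPM in MC38-P, 107, 101 and 116 TPM in MC38-LM3a, and 140, 131 and 130 TPM in MC38-LM3b. MC38-LM3a overlapped with MC38-P and MC38-LM3b did not. The log2 fold change of Tapbp was 0.21 (SE 0.09) in MC38-LM3a with an adjusted p of 0.09143, and 0.52 (SE 0.09) in MC38-LM3b with an adjusted p of 0.0009324 (limma). Erap1, which shortens peptides to the length that class I holds, had 50.4, 52.0 and 40.2 TPM in MC38-P, 54.7, 54.4 and 73.9 TPM in MC38-LM3a, and 75.2, 76.1 and 72.8 TPM in MC38-LM3b. The MC38-LM3a libraries were above those of MC38-P, by a narrow margin except in replicate 3, the library in which long transcripts read high. Erap1, with a transcript of 5644 bases, had a log2 fold change of 0.35 (SE 0.13, adjusted p = 0.06719) in MC38-LM3a and 0.65 (SE 0.13, adjusted p = 0.002455) in MC38-LM3b by limma. Without replicates 3 of MC38-P and MC38-LM3a, the value of Erap1 in MC38-LM3a was 0.09 and that of Tapbp 0.08, in libraries that then differ in their trend with length. With offsets for GC content and length they were 0.36 and 0.26, and both then passed the threshold (adjusted p = 6.813e-05 and 0.0002719, limma). In MC38-LM3b the offsets gave smaller values than before, 0.35 for Erap1 and 0.35 for Tapbp, and median centring gave 0.43 and 0.30, all past the threshold.

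Nlrc5, the transactivator, had the lowest level of the 10 genes in each line and one of the larger changes. It had 4.16, 3.41 and 2.63 TPM in MC38-P, 9.87, 9.41 and 15.9 TPM in MC38-LM3a, and 17.9, 17.4 and 18.0 TPM in MC38-LM3b. The lines did not overlap, but MC38-LM3a replicate 3 lay closer to MC38-LM3b than to its own replicates. The log2 fold changes were 1.51 (SE 0.19, adjusted p = 0.000224) in MC38-LM3a and 2.11 (SE 0.19, adjusted p = 1.874e-05) in MC38-LM3b by limma. The transcript of Nlrc5 is the longest of the 10, with 7578 bases. Without replicates 3 of MC38-P and MC38-LM3a the values were 1.16 and 1.98, both again past the thresholds of a DEG. The libraries left in that fit differ in their trend with length. Offsets for GC content and length raised the MC38-LM3a value of Nlrc5 to 1.58 (adjusted p = 5.241e-08, limma). For MC38-LM3b the same offsets lowered it to 1.78 (adjusted p = 2.02e-08, limma). How much of either value is due to length was not tested.

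MC38-LM3b was compared with MC38-LM3a to test whether the derivatives differed. None of the 10 genes passed an adjusted p of 0.05 (limma), where 0.0532% of all tested genes did, and 4 of the 10 had an unadjusted p under 0.05 (Nlrc5, Tapbp, Tap2 and Erap1), where 38.1% of all tested genes had one. The log2 differences ran from -0.17 for Psmb10 to 0.60 for Nlrc5 (95% confidence interval 0.18 to 1.01, adjusted p = 0.1187), with a median of 0.25 beside 0.21 for all tested genes. The difference of Psmb8 was 0.00 with an interval from -0.19 to 0.19. In 5 genes every MC38-LM3b library was above every MC38-LM3a library, as in 38.4% of all tested genes.

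This comparison depended on 1 library. Without MC38-LM3a replicate 3, 6 of the 10 genes passed: Nlrc5 (0.82, adjusted p = 0.003877), Erap1 (0.45, adjusted p = 0.00486), Tapbp (0.36, adjusted p = 0.006029) and Tap2 (0.33, adjusted p = 0.009127) were higher in MC38-LM3b, and Psme2 (-0.22, adjusted p = 0.008614) and Psmb10 (-0.28, adjusted p = 0.01312) were lower, by limma. Of all tested genes 6351, or 56.4%, then passed, against 6 with all libraries. Of these 6, the genes higher in MC38-LM3b had the longer transcripts, from 2898 bases for Tapbp to 7578 for Nlrc5, and Psmb10 and Psme2 had 1311 and 962 bases. Tap1, Psmb8, Psmb9 and Psme1, with 2953, 1628, 1352 and 1112 bases, did not pass. The part of length in these calls was not tested. With all 9 libraries and the offsets for GC content and length, the difference of Nlrc5 was 0.20 (adjusted p = 0.1572) and that of Erap1 -0.01 (adjusted p = 0.9316, limma), and none of the 10 genes passed, as without the offsets. The offsets were not fitted without MC38-LM3a replicate 3.

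Genes beside the 10 in the same pathway were counted by list. Of the 14 constitutive subunits of the proteasome core, 1 was higher in MC38-LM3a (Psmb2, 0.22) and none was lower, and in MC38-LM3b none was higher and 5 were lower, Psmb3 the most at -0.32. With median centring or with offsets for GC content and length, up to 4 were lower in MC38-LM3a and up to 10 in MC38-LM3b. Their median log2 fold changes were 0.03 and -0.15. Of 8 tested genes for other activators and assembly chaperones, Psme3, the PA28 gamma subunit, was lower in MC38-LM3a at -0.27, and 2 were lower in MC38-LM3b, Psmg3 the most at -0.45. With median centring 1 and 4 of these 8 genes were lower, and with the offsets 3 and 4. Pomp, the chaperone that matures new proteasomes, had values of 0.10 and 0.00, and Psme4, another activator, -0.15 and 0.21, none past the threshold. The thymic subunit Psmb11 was at 0.02 TPM or less. Over all tested genes, without centring or offsets, 14.1% were higher and 13.8% lower for MC38-LM3a, and 35.6% and 11.2% for MC38-LM3b. Their calls in either direction went from 3160 to 4513 with median centring and 5817 with the offsets for MC38-LM3a. For MC38-LM3b they went from 5276 to 5567 and 6474.

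The class I molecules themselves were higher in both derivatives. Of 9 tested genes, heavy chains and B2m together, 8 were higher in each, with medians of 0.89 and 1.08. DEGs were 4 for MC38-LM3a and 6 for MC38-LM3b, where 1.39% and 2.76% of all tested genes were DEGs with higher levels. With median centring the DEGs were 4 and 3, and with the offsets for GC content and length 3 and 4. No share of DEGs over all tested genes is given here for these settings. H2-Q6, which is counted among the 8 in each derivative, was at 0.46 to 0.70 TPM in MC38-P and passed the filter through the derivatives alone. H2-K1 rose from 254 ± 1.13 TPM in MC38-P to 692 ± 17.3 and 785 ± 31.6, and H2-D1 from 262 ± 16.1 to 675 ± 23.9 and 757 ± 10.1. H2-Q4 had the largest rise of this list, 2.08 and 2.38 on the log2 scale, and B2m, the shared light chain, rose by 0.81 and 0.93. The heavy chain genes are close copies of one another, and reads may have been split among them. Other loading and trimming genes were mixed: of 12 tested, 2 were higher and 3 lower in MC38-LM3a, and 7 higher and 3 lower in MC38-LM3b, with medians of 0.04 and 0.36. Of all tested genes, 14.1% were higher and 13.8% lower in the former and 35.6% and 11.2% in the latter. With median centring or the offsets, 3 or 4 were higher in MC38-LM3a and 4 or 6 in MC38-LM3b, where the median was 0.14 or 0.10. Calls over all tested genes, in either direction, were then 4513 or 5817 in MC38-LM3a and 5567 or 6474 in MC38-LM3b. The chaperone Calr rose by 0.38 and 0.52 and the disulfide isomerase Pdia3 by 0.36 and 0.57, while Canx had values of 0.00 and 0.26 that did not pass. Tapbpl, the tapasin-related editor, had 0.16 in MC38-LM3a and rose by 0.42 in MC38-LM3b (adjusted p = 0.005504, limma). Uggt1, which returns class I to the loading complex, rose by 0.76 in MC38-LM3b, and the cytosolic peptidase Thop1 fell by 0.44 and 0.49.

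The list of the interferon pathway and its regulators held 16 tested genes, among them Ifnar1, Ifnar2, Tyk2, Stat2 and Irf9 of type I interferon signalling. Of the 16, 3 were higher for MC38-LM3a and 11 for MC38-LM3b, beside 14.1% and 35.6% of all tested genes, and none was lower. With median centring 9 were higher and 1 lower for MC38-LM3a and 8 and 3 for MC38-LM3b. With the offsets these counts were 8 and 2, then 10 and 2. Over all tested genes, calls in either direction went from 3160 to 4513 with median centring and 5817 with the offsets for MC38-LM3a. For MC38-LM3b they went from 5276 to 5567 and 6474. The receptor chain Ifngr1 rose by 0.33 and 0.54, and Ifngr2 had values of -0.24 and -0.09 that did not pass. Irf1, the factor that drives immunosubunit genes after interferon, had 0.18 in MC38-LM3a and rose by 0.26 in MC38-LM3b (adjusted p = 0.02811, limma). Irf8 was the one DEG of the list, at 1.02 and 1.21, and with median centring the list had 0 DEGs in MC38-LM3b. The feedback inhibitor Socs1 had values of -0.01 and 0.15, neither past the threshold, and Ifnb1 was at 0.23 TPM or less. Irf2, Irf9, Jak1 and Jak2 did not pass in MC38-LM3a and rose in MC38-LM3b by 0.65, 0.44, 0.60 and 0.44. The list had a median of 0.20 for MC38-LM3a and of 0.44 for MC38-LM3b.

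Of 8 genes whose products bind class I promoters with Nlrc5, none was higher in MC38-LM3a and Atf1 was lower at -0.58. In MC38-LM3b Rfx5 (0.75) and Rfxank (0.40) were higher and Atf1 was lower at -0.36, while Rfxap had values of -0.11 and 0.10 that did not pass. Beside these counts, 14.1% of all tested genes were higher and 13.8% lower in the former, and 35.6% and 11.2% in the latter. With median centring 1 was higher and 1 lower in MC38-LM3a and 1 and 2 in MC38-LM3b. With the offsets 2 were higher and 2 lower in each. Calls over all tested genes in these settings are those given for the interferon list. Of 4 listed class II genes, Ciita, the class II counterpart of Nlrc5, was at 0.08 TPM or less in every library. Cd74 was at 0.33 TPM or less and H2-DMb1 at 0.35 or less. H2-DMa, the 1 class II gene tested, had 0.70 to 1.58 TPM and did not pass in either derivative. The plot of fold changes by list sets these groups side by side.

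**Figure D4:**
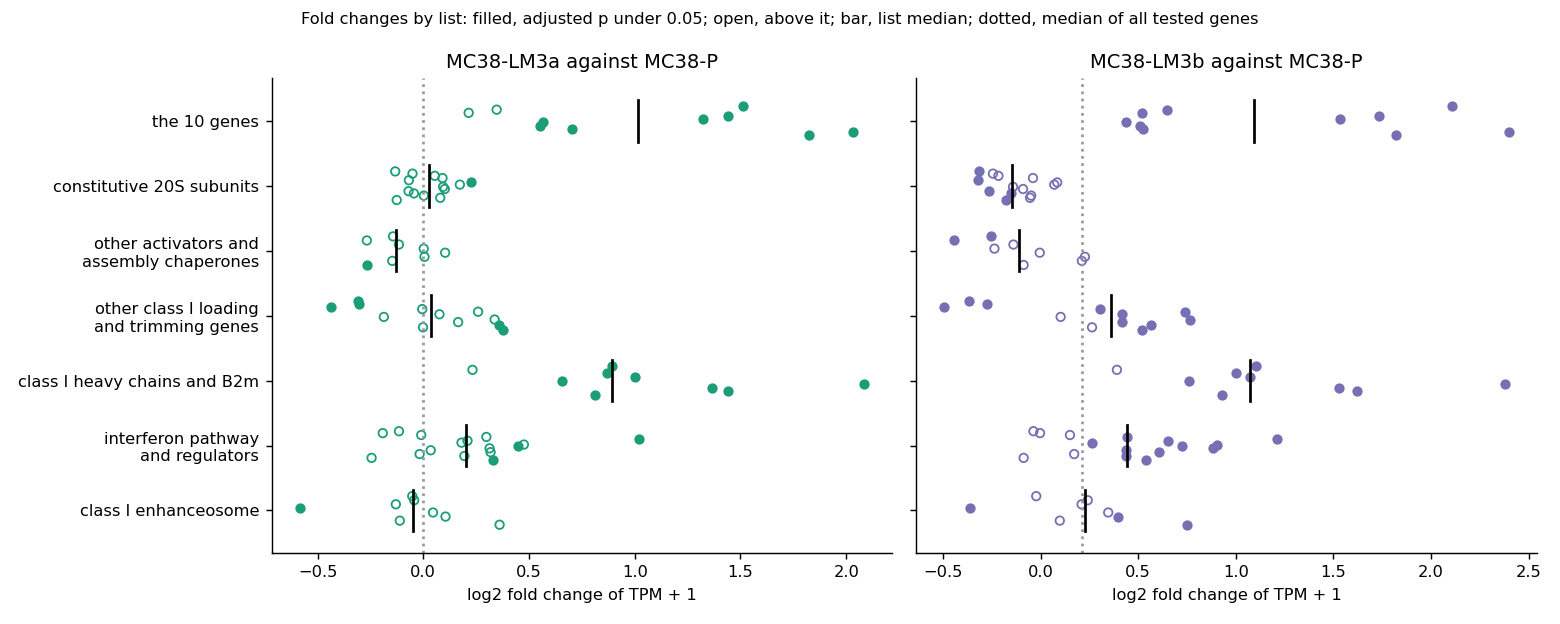
Log2 fold change of TPM + 1 against MC38-P (horizontal axes) of each tested gene in 7 lists, for MC38-LM3a (left) and MC38-LM3b (right). Filled points had an adjusted p under 0.05 (limma), bars are list medians, and dotted lines are the medians of all tested genes. The 10 genes and the class I heavy chains with B2m had the medians farthest to the right, 1.01 and 0.89 in MC38-LM3a and 1.09 and 1.08 in MC38-LM3b.

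The neighbours of the Psmb9 to Tap2 block on chromosome 17 were read for the same comparisons. Of the 10 listed genes on each side, 14 were tested, 3 were higher for MC38-LM3a and 6 for MC38-LM3b, beside 14.1% and 35.6% of all tested genes, and none was lower. H2-K1 was a DEG in both, and Gpsm3, at 0.87 and 0.99, and Ring1, at 0.40 and 0.59, were the others higher in both. The genes next to Psmb9 were H2-DMb1, which was below the filter, and H2-DMa, a class II loading gene with mean levels of 1.18 TPM in MC38-P, 0.97 for MC38-LM3a and 1.34 for MC38-LM3b. Brd2, an expressed neighbour on the same side, had values of -0.15 and 0.09, neither past the threshold. On the other side Btnl4 and Btnl6 were below the filter. The next listed genes beside the other 6 members were 11, of which 10 were tested, and 2 were higher in MC38-LM3a (Herpud1 and Cast) and 8 in MC38-LM3b, beside the same shares.

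**Figure D5:**
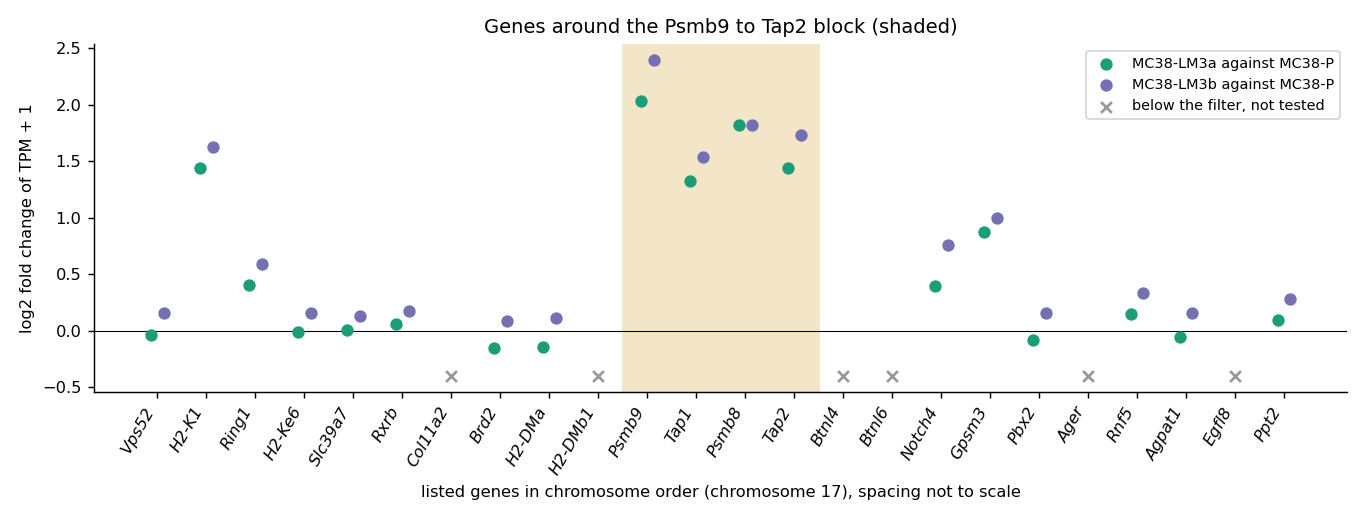
Log2 fold change of TPM + 1 in MC38-LM3a and MC38-LM3b against MC38-P (vertical axis) for the listed genes around Psmb9, Tap1, Psmb8 and Tap2 (shaded) in their order on chromosome 17, spacing not to scale. Crosses are genes below the filter. The 4 shaded genes lie between 1.32 and 2.40, and H2-K1 at 1.44 and 1.62.

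The tested genes whose pattern over the 9 libraries was most like the mean pattern of the 10 were Slit1, Irf8, Akap7, Gbp2 and Sdf2l1. Likeness was the root mean square difference of log2(TPM + 1), each gene taken relative to its MC38-P mean, and was 0.04, 0.05, 0.07, 0.08 and 0.09 in this order. Slit1 had a mean of 0.29 TPM in MC38-P, 1.60 for MC38-LM3a and 2.00 for MC38-LM3b, so it passed the filter through the derivatives alone, and the pseudocount of 1 is large beside its levels. The mean pattern of the 10 genes lay between -0.04 and 0.03 in the MC38-P libraries, between 1.02 and 1.08 in MC38-LM3a and between 1.18 and 1.27 in MC38-LM3b. Gbp2, an interferon-induced GTPase, had mean levels of 7.59 TPM in MC38-P, 16.0 for MC38-LM3a and 17.9 for MC38-LM3b, and those of Irf8 were 15.2, 31.8 and 36.4 TPM.

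Markers of cells that could carry these genes into a culture were read in every library, as leukocytes express the immunoproteasome at high levels. Ptprc, Coro1a, Laptm5 and Cd53 were at 0.23 TPM or less in all 9 libraries. Ptpn6, the other listed hematopoietic marker, put the sum of its list at 13.8 to 14.5 TPM in MC38-P, 7.67 to 8.68 for MC38-LM3a and 8.54 to 9.80 for MC38-LM3b. Of 7 listed macrophage markers, Csf1r, Lyz2, Itgam, Cx3cr1 and Mrc1 were at 0.79 TPM or less. Cd68 and Cd14 were expressed and rose by 0.33 and 0.39 in MC38-LM3a and by 0.57 and 0.44 in MC38-LM3b. With median centring Cd14 no longer passed in MC38-LM3b. The summed level of the macrophage list was 39.3 to 41.0 TPM in MC38-P, 49.2 to 54.2 for MC38-LM3a and 56.0 to 60.4 for MC38-LM3b. Cd8a was at 0.18 TPM or less, Cd79a at 0.45 or less and each hepatocyte marker at 0.31 or less. The lines are labelled as epithelial: Krt8 had 1127 ± 79.2 TPM in MC38-P, but Cdh1, Vil1 and Cldn7 were at 0.15 TPM or less in every library. Levels of this list also moved between the lines. Epcam fell by 1.14 in MC38-LM3a and 1.07 in MC38-LM3b, Cdx2 by 1.00 and 1.20, Krt8 by 0.48 and 0.56, and Krt18 by 0.24 and 0.32. Krt19 and Krt20 rose by 0.39 and 0.55 in MC38-LM3a and had -0.08 and 0.33 in MC38-LM3b, which did not pass. With median centring neither rise passed in MC38-LM3a, and 3 genes of the list were lower there rather than 4. Cdx2, at 0.92 TPM or less in the derivatives, passed the filter through MC38-P alone. Krt20, at 0.79 TPM or less in MC38-P, passed it through the derivatives alone. The summed level of the list was 2003 to 2318 TPM in MC38-P, 1592 to 1811 for MC38-LM3a and 1584 to 1629 for MC38-LM3b. Col1a1, a fibroblast marker, fell by 1.55 and 1.48, and Flt3, a dendritic cell marker, by 0.78 and 0.69. Flt3, at 0.47 TPM or less in the derivatives, passed the filter through MC38-P alone. The part of these markers in the differences of the 10 genes was not tested.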

How the data were processed

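Per the labels and the study's methods, poly(A) RNA of cultured MC38 lines was sequenced on the DNBSEQ platform, and the submitters' processing notes name HISAT and GRCm39. The quantification tool, its annotation and the versions are not given in the sources used here. The authors deposited TPM per gene, 1 file per library, without counts, so DESeq2, the study's tool, could not be run and the depth is unknown. Genes that reached 1 TPM in 3 or more libraries were tested. A model in limma 3.58.1 (R 4.3.3) was fitted to log2(TPM + 1) with 1 mean per group over all 9 libraries, trended variance and Benjamini-Hochberg adjustment. Fold changes are on that scale and understate those of low genes. Ratios of subunits were compared by exact permutation. The script was tested on simulated data. Length and GC content (GENCODE M21) covered 98.3% of tested genes, and 99.3% of gene numbers matched the RefSeq table, used for gene order. Named genes were the 10 members, preset genes of each list, its largest rise and fall, and the 5 most alike. Alternatives changed the pseudocount, filter, scaling, libraries and replicate block. The members and lists were chosen with earlier results of these data known.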

Additional observations from a re-analysis of the deposited data

How the results depend on the processing

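Over 20 settings, Psmb8, Psmb9, Psmb10, Psme1, Psme2, Tap1, Tap2 and Nlrc5 passed the threshold in MC38-LM3a in each, and Tapbp and Erap1 in 5 and 4 of them. In MC38-LM3b, Psmb8, Psmb9, Tap1, Tap2, Tapbp, Erap1 and Nlrc5 passed in each, and Psmb10, Psme1 and Psme2 in 19, all but median centring. Correlations of deviations from the group mean ran from -0.66 to 0.07 for same-numbered libraries of different lines, and from -0.46 to 0.55 for the others. For pairs with an MC38-LM3b library they were 0.04 to 0.07 and -0.06 to 0.01. These values do not settle whether the replicate numbers pair the libraries, as libraries of MC38-P and MC38-LM3a also differed in their trend with length. With a replicate block 8, 10 and 0 of the 10 genes passed in MC38-LM3a, MC38-LM3b and between the derivatives. The calls over all tested genes then went from 3160 to 2200, 5276 to 3891 and 6 to 2. Between MC38-LM3b and MC38-LM3a, 8 of the 10 genes passed without replicates 3 of MC38-P and MC38-LM3a, where 71.7% of all tested genes did, and 0 to 6 when single libraries were left out. In that comparison the log2 difference of Psmb8, 0.00, became -0.0494 with GC and length offsets (with or without the replicate block), -0.222 with median centring, -0.123 with quantile normalization, and -0.057 without replicates 3 of MC38-P and MC38-LM3a. Leaving out single libraries gave -0.057 to 0.051. With the offsets, with or without the block, Psme1 became 0.0062, Tap1 -0.0154 and Erap1 -0.0082, and Tap1 became -0.0114 with median centring and -0.0155 with quantile normalization. The log2 ratio of Psmb10 to Psmb7 became -0.017 with the offsets and ran from -0.106 to 0.0982 over single libraries left out. The causes were not tested. Genes called among all tested ranged over the settings from 2083 to 7111 in MC38-LM3a, 3702 to 7300 in MC38-LM3b and 0 to 8025 between the derivatives. The lists were counted under median centring and the offsets alone, where counts of the interferon list, with those of the report, ranged from 3 to 9 higher in MC38-LM3a and 8 to 11 in MC38-LM3b, and constitutive subunits lower in MC38-LM3b from 5 to 10. No depth is known, so counting error could not be given.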
